A study of Homo sapiens with 6 samples.

Results

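The genes described here act where blood coagulation starts and where plasminogen is turned into plasmin. They are F3, TFPI, TFPI2, THBD, PLAU, PLAUR, PLAT, SERPINE2 and THBS1, which were chosen by gene symbol in the deposited gene table, and they are 9 of its 46427 genes. All 9 were found under their symbols and all 9 passed the filter on low counts. MDA-MB-231 cells, an established human breast cancer line of metastatic origin, were transfected with control-siRNA (3 libraries, genotype labelled WT) or with TAZ-siRNA (3 libraries, genotype labelled TAZ knockdown), which is a small interfering RNA reagent against WWTR1, the gene that encodes the coactivator TAZ. Both groups were grown in low glucose DMEM (5.5 mM) with 10% heat-inactivated serum, and were lifted with trypsin/EDTA and frozen before RNA was taken. The libraries of a group were separate preparations of 1 cell line, and a single siRNA reagent was used, so effects of the reagent other than on WWTR1 cannot be told apart from effects of TAZ. The comparison asks how these mRNAs differed when TAZ was depleted.

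Tissue factor, the product of F3, is a membrane protein that binds factor VII and starts the coagulation cascade. TFPI and TFPI2 carry Kunitz domains that block proteases, the former acting on factor Xa and on the tissue factor complex and the latter mainly on plasmin and trypsin, and thrombomodulin (THBD) redirects thrombin to activate protein C. Urokinase (PLAU) and tissue plasminogen activator (PLAT) cleave plasminogen to plasmin, PLAUR holds urokinase at the cell surface, SERPINE2 encodes the protease inhibitor nexin-1, and thrombospondin 1 (THBS1) is a secreted matrix protein that binds plasminogen and cell surface receptors. Invasive breast cancer cells are known for producing urokinase, its receptor and tissue factor.

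With TAZ-siRNA, the mRNAs of F3, THBS1 and TFPI2 fell, those of PLAUR and TFPI rose, and the test was not passed by PLAU, PLAT, THBD and SERPINE2. F3 fell to 50.5% of its control-siRNA level, THBS1 to 59.6% and TFPI2 to 65.4%, whereas PLAUR reached 133% and TFPI 116%. In all, 5 of the 9 genes (55.6%) passed an adjusted p of 0.05 (edgeR's quasi-likelihood test with Benjamini-Hochberg adjustment), of which 2 were higher and 3 lower, where 22.1% of the 16966 genes tested did so, 11.9% higher and 10.2% lower. The falls of F3, THBS1 and TFPI2 were of at least 1.5-fold, a size that 4.42% of all genes tested reached with the same call. At a fold of at least 2 the call was made for 0 of the 9 and for 1.41% of all genes tested, F3 being 1.98-fold lower. In 6 of the 9 genes no TAZ-siRNA library overlapped a control-siRNA library, against 39.6% of all genes tested. As the RNA came from bulk cells, fewer cells with an mRNA and less of it per cell cannot be told apart.

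Total counts were 48307548 to 71749634 per library, at which the floor of 3 counts was 0.0411 to 0.0618 CPM (counts scaled to the normalized library size), and this floor covers counting error only. WWTR1 mRNA was 190 to 192 CPM in the control-siRNA libraries and 15.1 to 17.3 CPM in the TAZ-siRNA libraries, or 8.64% of control. TAZ-siRNA replicate 3 stood apart from the other libraries of its group. Its root mean square difference from them was 0.189 and 0.212 on the log2 scale, against 0.134 between replicates 1 and 2 of TAZ-siRNA and 0.0928 to 0.129 among the control-siRNA libraries. Of the 10 markers of the line, VIM was highest, at 1458 to 1607 FPKM (fragments scaled by transcript length and library size). In every library 4 of the 10 stayed under 1 FPKM. They were EPCAM and CDH1, at no more than 0.907 and 0.103 FPKM, and ESR1 and PGR, at or under 0.012 FPKM. KRT7 was 197 to 201 FPKM under control-siRNA and 135 to 147 under TAZ-siRNA, while VIM, CD44, KRT8, KRT18 and ERBB2 overlapped between the groups. All of these but VIM are named after their values were seen. Of the leukocyte markers, PTPRC and CD3E had no count, while the FPKM of CD68 ranged over 37.8 to 41.9 under control-siRNA but 28.1 to 31.4 under TAZ-siRNA. Those of CD14 (0.241 to 0.364 against 0.435 to 0.509) and LYZ (0.181 to 0.381 against 0.479 to 0.527) were higher under TAZ-siRNA, at levels under 1 FPKM. The part of such cells in the results was not tested. The 6 endothelial markers summed to 0.990 to 1.29 FPKM in the control-siRNA libraries and 0.990 to 1.60 in the TAZ-siRNA libraries, with CLDN5 at 0, the 5 platelet markers to at most 0.814 with PPBP and GP9 at 0, and the 5 hepatocyte markers to at most 3.12 with TTR and FGB at 0.

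**Figure D1:**
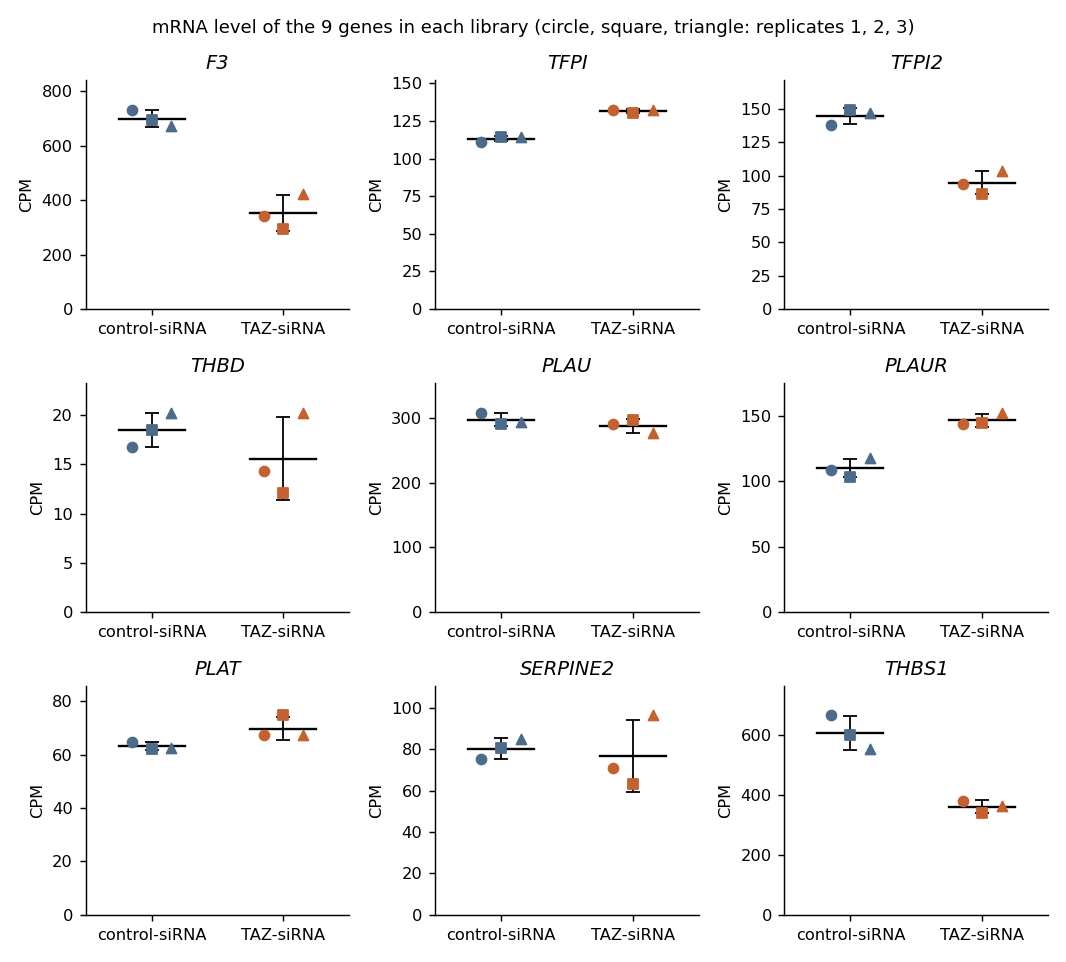
Each panel plots CPM on the y axis for 1 gene in the 3 control-siRNA and 3 TAZ-siRNA libraries, with circles, squares and triangles for replicates 1, 2 and 3 and bars for the mean ± SD. F3, TFPI2 and THBS1 were lower and TFPI and PLAUR higher in every TAZ-siRNA library, while THBD and SERPINE2 spread widely with TAZ-siRNA, replicate 3 being highest.

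The sequence before the start site is shown for F3, TFPI2, PLAUR and THBS1, the genes that changed and held a TEAD or AP-1 match there. TFPI also changed, but its window held neither and is not printed. Factors of the TEAD family, through which TAZ acts, bind GGAATG, and AP-1 factors bind TGANTCA. The RefSeq promoter table (build GRCh38.p14), with windows of 250 bases before to 50 bases after a start, matched 7 of the 9 genes in 9 windows. THBD and PLAT were not matched. The stretches printed run 5′ to 3′ on the strand of the gene, end before the outermost start of any deposited transcript in the window, and carry the motifs TEAD and AP-1 in capitals. They are F3 on the minus strand (chr1:94541858-94542009), TFPI2 on the minus strand (chr7:93890754-93891003), PLAUR on the minus strand (chr19:43670347-43670419) and THBS1 on the plus strand (chr15:39580829-39581078).
F3: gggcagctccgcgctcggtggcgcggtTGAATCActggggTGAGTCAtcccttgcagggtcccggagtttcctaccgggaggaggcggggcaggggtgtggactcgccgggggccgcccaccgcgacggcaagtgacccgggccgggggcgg
TFPI2: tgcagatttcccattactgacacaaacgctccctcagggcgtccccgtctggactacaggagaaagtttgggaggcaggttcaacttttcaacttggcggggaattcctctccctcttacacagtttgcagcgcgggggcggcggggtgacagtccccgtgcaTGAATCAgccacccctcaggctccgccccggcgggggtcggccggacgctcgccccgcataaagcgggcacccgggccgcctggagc
PLAUR: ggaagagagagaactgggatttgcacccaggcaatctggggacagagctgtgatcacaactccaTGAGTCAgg
THBS1: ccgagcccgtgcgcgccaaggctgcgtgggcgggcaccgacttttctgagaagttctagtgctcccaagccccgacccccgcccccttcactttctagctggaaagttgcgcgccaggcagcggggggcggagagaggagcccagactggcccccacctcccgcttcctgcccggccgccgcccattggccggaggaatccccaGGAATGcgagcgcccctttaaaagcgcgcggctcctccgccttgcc
F3 held 2 AP-1 matches, at -223 to -217 and -210 to -204 from the start site of its main transcript. TFPI2 and PLAUR held 1 each, at -87 to -81 and -186 to -180 from the start that defines the window. For PLAUR that start, 43670169, is not that of its most abundant transcript, the predicted variant X4, which starts at 43670197. THBS1 held the only TEAD match among the 9 windows, at -46 to -41. Searched on both strands over the whole windows, the AP-1 letters were in 7.71% of all 35116 promoters and the TEAD letters in 14.0%. The windows of TFPI, PLAU and SERPINE2 held neither. The SP1 letters GGGCGG, in 45.0% of promoters, occurred 4 times in F3, 4 times in THBS1, 2 times in TFPI2, 3 times in 1 of the 2 windows of PLAU and 1 and 2 times in those of SERPINE2, and the letters TATAAA, in 11.5%, occurred once, in F3 on the opposite strand. The letters TGACG, in 24.6% of promoters, occurred once, after the start site in 1 window of SERPINE2. No match overlapped another, and a match in these letters is a description and not a bound site.

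F3 (NCBI gene 2152, GRCh38 chromosome 1, 94529173 to 94541857) was the most abundant of the 9 mRNAs per length in both groups. Its level was 732, 693 and 674 CPM under control-siRNA against 344, 293 and 422 CPM under TAZ-siRNA (counts of 48827, 43109 and 32714 against 25055, 14470 and 23567). All TAZ-siRNA libraries were below all control-siRNA libraries, and replicate 3 was the highest of its group. The mean fell from 700 ± 29.9 to 353 ± 64.8 CPM (means ± SD, n = 3 each), and the log2 fold change was -0.99 (SE 0.11, edgeR adjusted p = 4.9e-04). Without TAZ-siRNA replicate 3 the log2 fold change of F3 was -1.13, and without TAZ-siRNA replicate 2 it was -0.87. Nearly all of the F3 signal came from transcript variant 1, the full-length membrane form, with 98.1 ± 0.296% of the gene's FPKM with control-siRNA against 97.2 ± 0.290% with TAZ-siRNA (SD, n = 3 each). The rest came from variant 2, a spliced form without the membrane anchor, whose share was 1.78, 1.75 and 2.28% under control-siRNA against 3.08, 2.54 and 2.63% under TAZ-siRNA. The shares of variant 2 did not overlap between the groups, while its own log2 fold change of -0.46 did not pass the transcript test (edgeR adjusted p = 0.855). At the spread of the transcript counts this test had too little power for changes of 2-fold or less, and larger ones could also be missed. A transcript that did not pass it is therefore not shown to be unchanged, here and for the other genes.

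TFPI (NCBI gene 7035, chromosome 2, 187464230 to 187554505) encodes the main inhibitor of the tissue factor pathway. Its mRNA measured 111, 114 and 114 CPM with control-siRNA and 132, 130 and 132 CPM with TAZ-siRNA. Relative to the mean, the spread within each group was the narrowest of the 9 genes, and the groups did not overlap. The mean rose from 113 ± 1.79 to 132 ± 1.34 CPM (means ± SD, n = 3 each), and the log2 fold change was 0.22 (SE 0.043, edgeR adjusted p = 0.0058), or 1.16-fold. Transcript variant 1, which encodes the secreted alpha form, held 48.4 ± 1.44% of the FPKM of TFPI with control-siRNA against 50.5 ± 0.491% with TAZ-siRNA (SD, n = 3 each). Other transcripts with the same start and end held 14.3, 13.7 and 9.01% with control-siRNA and 14.1, 14.5 and 8.64% with TAZ-siRNA. Which form these encode was not examined, so the share of variant 1 is not the whole share of the alpha form. Variant 2, which encodes the beta form with a membrane anchor, held 1.43 ± 1.17% (SD, n = 3) and 1.81 ± 0.831% (SD, n = 3), so its share overlapped between the groups.

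TFPI2 (NCBI gene 7980, chromosome 7, 93885396 to 93890753) encodes a matrix-bound Kunitz inhibitor. Its levels were 138, 150 and 147 CPM under control-siRNA against 94.1, 86.6 and 104 CPM under TAZ-siRNA. It moved opposite to TFPI, with every TAZ-siRNA library below every control-siRNA library. The fall was from 145 ± 6.20 to 94.8 ± 8.56 CPM (means ± SD, n = 3 each), and the log2 fold change was -0.61 (SE 0.066, edgeR adjusted p = 2.5e-04). Its 3 RefSeq transcripts had log2 fold changes of -0.57, -0.68 and -0.77, and the main one held 80.3% of the FPKM with control-siRNA and 82.0% with TAZ-siRNA.

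THBD (NCBI gene 7056, chromosome 20, 23045633 to 23049672) was the least abundant of the 9. It measured 16.7, 18.5 and 20.2 CPM with control-siRNA and 14.3, 12.1 and 20.3 CPM with TAZ-siRNA. The last of these, TAZ-siRNA replicate 3, was level with the highest control-siRNA library, while the other two were below all controls. The log2 fold change was -0.24 with a 95% interval of -0.65 to 0.16 (edgeR adjusted p = 0.363). Without TAZ-siRNA replicate 3 it was -0.47 (edgeR adjusted p = 0.0015), so the call on THBD rests on that library.

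PLAUR (NCBI gene 5329, chromosome 19, 43646095 to 43670346) encodes the urokinase receptor. It was 109, 103 and 118 CPM under control-siRNA against 143, 144 and 152 CPM under TAZ-siRNA, with no overlap. The mean rose from 110 ± 7.16 to 147 ± 5.00 CPM (means ± SD, n = 3 each), and the log2 fold change was 0.42 (SE 0.056, edgeR adjusted p = 7.8e-04). Among its 12 RefSeq transcripts, the predicted variant X4 was the most abundant, at 22.9, 28.3 and 29.3 FPKM with control-siRNA and 44.2, 44.8 and 47.0 FPKM with TAZ-siRNA. The predicted variant X1 was 9.29, 6.12 and 2.75 FPKM with control-siRNA and 0.057, 0.121 and 0 FPKM with TAZ-siRNA, with no overlap. By the transcript test X4 had a log2 fold change of 0.76 (edgeR adjusted p = 0.241). That of X1 was -6.61, with an unadjusted p of 0.0041 and an adjusted p of 0.335 by edgeR, so neither passed.

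PLAU (NCBI gene 5328, chromosome 10, 73909182 to 73917497), the gene of the enzyme that PLAUR binds, did not pass the test. Its levels were 309, 292 and 294 CPM with control-siRNA and 292, 297 and 277 CPM with TAZ-siRNA, so the groups overlapped. The log2 fold change was -0.05 with a 95% interval of -0.17 to 0.07 (edgeR adjusted p = 0.577). With limma on log2(TPM + 1) the sign turned, at 0.0081. An overlapping gene, C10orf55, had at most 63 counts in a library.

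PLAT (NCBI gene 5327, chromosome 8, 42174718 to 42207565), the other plasminogen activator, was 64.9, 62.2 and 62.4 CPM with control-siRNA and 67.2, 74.7 and 67.4 CPM with TAZ-siRNA. The groups did not overlap, but the difference was small, with a log2 fold change of 0.14 and a 95% interval of 0.02 to 0.26. It did not pass the test (edgeR adjusted p = 0.093) and did so only when TAZ-siRNA replicate 3 was left out, at 0.17 (edgeR adjusted p = 0.022).

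SERPINE2 (NCBI gene 5270, chromosome 2, 223975045 to 224039319) inhibits thrombin, urokinase and plasmin. It measured 75.1, 80.7 and 85.1 CPM with control-siRNA and 71.0, 63.1 and 96.2 CPM with TAZ-siRNA. The first and second TAZ-siRNA libraries were below all controls and the third was above all of them. The log2 fold change was -0.06 with a 95% interval of -0.43 to 0.30 (edgeR adjusted p = 0.806). It was -0.25 without TAZ-siRNA replicate 3 (edgeR adjusted p = 0.0062) and 0.06 without TAZ-siRNA replicate 2. The shares of its transcripts also differed between libraries of the same group. Variant 2 held 54.5, 38.9 and 53.6% of the FPKM of SERPINE2 under control-siRNA against 50.4, 92.0 and 94.8% under TAZ-siRNA, while variant 1 held 40.8, 29.3 and 41.8% and 41.1, 6.36 and 2.82%. TAZ-siRNA replicate 1 thus resembled the controls in these shares and the other two did not, and neither variant passed the transcript test (adjusted p of 0.874 and 0.951 by edgeR).

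THBS1 (NCBI gene 7057, chromosome 15, 39581079 to 39599466), whose promoter held the TEAD letters shown above, was 664, 599 and 551 CPM with control-siRNA and 380, 338 and 363 CPM with TAZ-siRNA. Every TAZ-siRNA library was well below the lowest control-siRNA library. The mean fell from 605 ± 56.7 to 360 ± 21.5 CPM (means ± SD, n = 3 each), and the log2 fold change was -0.75 (SE 0.077, edgeR adjusted p = 2.0e-04). The reference transcript carried 99.0 ± 0.346% of the FPKM of THBS1 with control-siRNA against 97.6 ± 0.259% with TAZ-siRNA (SD, n = 3 each). The shorter predicted variant X1 was 0.716, 0.471 and 0.862 FPKM with control-siRNA and 0.930, 0.977 and 1.04 FPKM with TAZ-siRNA, and its log2 fold change of 0.53 did not pass the transcript test (edgeR adjusted p = 0.909). FSIP1, a gene that overlaps THBS1, had at most 120 counts in a library.

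**Figure D2:**
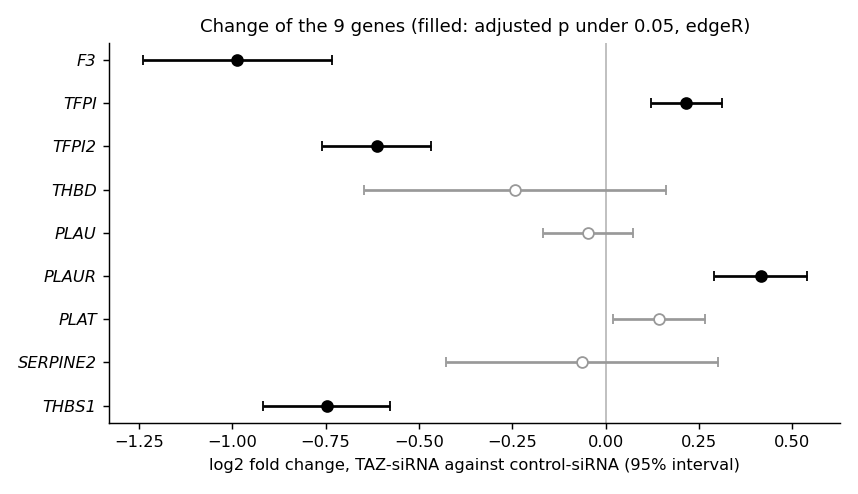
The log2 fold change of each gene (x axis, TAZ-siRNA against control-siRNA) is drawn with its 95% interval, filled where the edgeR adjusted p was under 0.05. The intervals of F3, THBS1 and TFPI2 lay below 0 and those of TFPI and PLAUR above 0, while the widest, of THBD and SERPINE2, crossed it and PLAT lay just above 0 without passing the test.

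For the 6 genes whose groups did not overlap, the exact permutation test over the libraries (2-sided) gave p = 0.1, the smallest that 3 against 3 allows. The transcript-level test found 0 of the 45 tested transcripts of these genes at an edgeR adjusted p under 0.05, and 8 at an unadjusted p under 0.05. Over all 64638 transcripts tested it called 11 (0.0170%), and 4269 had an unadjusted p under 0.05. The biological coefficient of variation was 84.4% for transcripts and 8.04% for genes. The main transcripts of F3 and THBS1 had log2 fold changes of -0.99 and -0.75, as their genes did.

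Within the TAZ-siRNA group, replicate 3 had the highest and replicate 2 the lowest level of F3, TFPI2, THBD and SERPINE2. Relative to the group mean, replicate 3 was 0.27 higher for F3, 0.13 for TFPI2, 0.41 for THBD and 0.35 for SERPINE2 on the log2 scale. Replicate 2 was lower by 0.25, 0.13, 0.33 and 0.26 in the same order. For these 4 genes, leaving out replicate 2 or 3 of TAZ-siRNA gave the ends of the range of the log2 fold change. What sets replicate 3 apart from its group was not tested. With that library left out, 8 of the 9 genes had an edgeR adjusted p under 0.05, 3 higher and 5 lower, and all members called on the full set were among them. Calls rose over all genes too, to 5928 of 17585 tested (3102 higher and 2826 lower), against 3749 of 16966 on the full set. With any other library left out, the 5 genes F3, TFPI, TFPI2, PLAUR and THBS1 were called and no further member was.

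**Figure D3:**
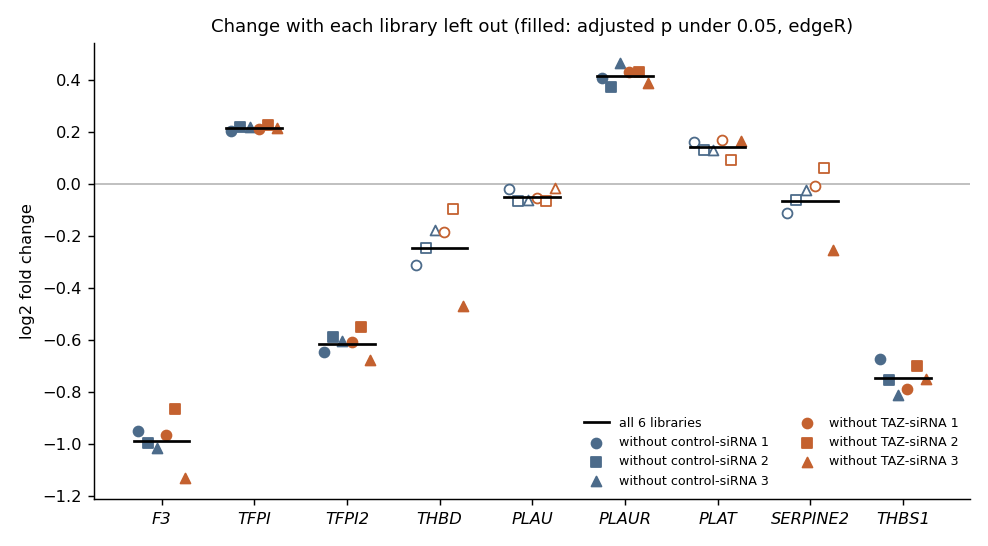
The log2 fold change (y axis) of each gene is shown for all 6 libraries (line) and with each library left out (symbols, filled where the edgeR adjusted p was under 0.05). F3, TFPI, TFPI2, PLAUR and THBS1 stayed filled throughout, and THBD, PLAT and SERPINE2 were filled only without TAZ-siRNA replicate 3.

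The order of the levels, compared per length as FPKM, began with F3 (272 ± 11.1 FPKM, SD, n = 3) and PLAU (114 ± 3.10 FPKM, SD, n = 3) with control-siRNA. PLAUR (69.7 ± 5.47 FPKM) and THBS1 (69.5 ± 6.37 FPKM) came next and overlapped. They were followed by TFPI2 (59.0 ± 2.84 FPKM), SERPINE2 (32.1 ± 2.08 FPKM), TFPI (28.4 ± 0.335 FPKM), PLAT (18.5 ± 0.365 FPKM) and THBD (4.09 ± 0.392 FPKM), each apart from its neighbours. F3 stood above 98.9% of the genes tested and THBD above 47.7%, so the 9 genes ranged from very abundant to middling. With TAZ-siRNA, F3 (138 ± 21.9 FPKM, SD, n = 3) was still first but close to PLAU (111 ± 6.96 FPKM), PLAUR (95.9 ± 0.897 FPKM) was now well above THBS1 (41.9 ± 2.87 FPKM), and THBS1 overlapped TFPI2 (38.7 ± 2.71 FPKM). TFPI (32.7 ± 0.815 FPKM) and SERPINE2 (30.8 ± 6.16 FPKM) overlapped as well.

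Ratios between genes within a library, which do not depend on scaling between libraries, were compared for 8 pairs. The mRNA of F3 exceeded that of TFPI by 10.1, 9.51 and 9.14 times in the control-siRNA libraries and by 4.09, 3.57 and 5.00 times in the TAZ-siRNA libraries. This ratio of tissue factor to its inhibitor was 2.29-fold lower with TAZ-siRNA, the largest shift of the 8. F3 to TFPI2 was 1.31-fold lower, both genes having fallen, and TFPI2 to TFPI was 1.76-fold lower, from 1.99, 2.14 and 2.09 to 1.17, 1.10 and 1.28. The mRNAs of the 2 Kunitz inhibitors were thus closer to level with TAZ-siRNA, with TFPI2 still the more abundant per length.

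On the side of plasminogen activation, PLAU to PLAUR went from 1.73, 1.71 and 1.47 with control-siRNA to 1.18, 1.21 and 1.07 with TAZ-siRNA, or 1.42-fold lower. PLAU to PLAT was 6.20, 6.11 and 6.12 against 5.65, 5.16 and 5.32, or 1.14-fold lower. THBS1 to PLAU was 1.62-fold lower and F3 to THBD 1.65-fold lower. For each of these 7 ratios the groups did not overlap (exact permutation p = 0.1, 2-sided, the smallest that 3 against 3 allows, and adjusted p = 0.114 over the 8 pairs). For F3 to TFPI and TFPI2 to TFPI this followed from the separate changes of the genes, which went in opposite directions in every library. How often other pairs of genes do not overlap was not counted, so the ratios are a description. PLAU to SERPINE2 overlapped, with 3.93, 3.44 and 3.30 against 3.92, 4.48 and 2.73 (exact permutation p = 1.0, 2-sided).

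**Figure D4:**
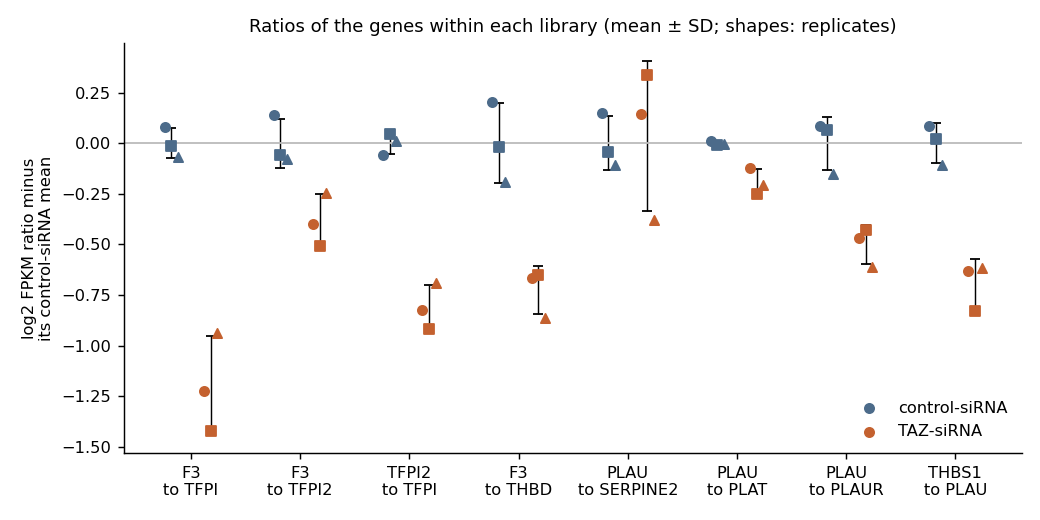
The y axis gives the log2 ratio of the FPKM of 2 genes in a library minus the mean of that ratio in the control-siRNA libraries, with bars for the mean ± SD of each group. All ratios except PLAU to SERPINE2 were lower in every TAZ-siRNA library than in every control-siRNA library, with the lowest values for F3 to TFPI.

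Other genes of these pathways were counted in 6 lists of 81 genes, of which 53 passed the filter on low counts. Of the 53 genes, 22 (41.5%) had an edgeR adjusted p under 0.05, 15 higher and 7 lower, beside 22.1% of all genes tested, and their median log2 fold change was 0.04 against -0.01 for all. The count fell to 9 without control-siRNA replicate 2, to 12 without control-siRNA replicate 1 and to 13 without TAZ-siRNA replicate 1. Calls over all genes tested fell as well in these fits, from 3749 of 16966 to 1937 of 17258, 2262 of 17213 and 2046 of 17198 in the same order.

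Of the coagulation factors and cofactors, 10 of 22 were tested, and F2, F7, F10 and the fibrinogen genes were among those that did not pass the filter on low counts. F12, a plasma factor that starts the contact pathway, was tested and not called, with a log2 fold change of -0.14. GGCX, the carboxylase that modifies vitamin K-dependent factors, rose (log2 fold change 0.22, edgeR adjusted p = 0.021). VKORC1L1, a vitamin K reductase, and LMAN1, a cargo receptor for factors V and VIII, fell (log2 fold changes of -0.19 and -0.18, adjusted p of 0.031 and 0.032 by edgeR). Of these 3 calls, those of GGCX and VKORC1L1 held in 3 and that of LMAN1 in 1 of the 6 leave-one-out fits, each made without 1 library.

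Of the anticoagulant proteins, 5 of 7 tested were called, 3 higher and 2 lower. PROS1, the gene of protein S, a cofactor of both TFPI and activated protein C, rose from 11.3 ± 0.916 to 14.5 ± 0.922 FPKM (means ± SD, n = 3 each), and the log2 fold change was 0.35 (edgeR adjusted p = 0.0040). GAS6, a relative of protein S and ligand of TAM receptors, fell from 6.87 ± 0.293 to 4.36 ± 0.196 FPKM (means ± SD, n = 3 each), and the log2 fold change was -0.67 (edgeR adjusted p = 1.9e-04). Both calls held with each library left out. SERPIND1 (0.62), heparin cofactor II, and SERPINA5 (0.34), the protein C inhibitor, also had positive log2 fold changes, with adjusted p of 0.028 and 0.027 by edgeR, and held in 2 and 3 of the 6 fits. PROCR, the endothelial protein C receptor, was the fifth, at -0.33 (edgeR adjusted p = 0.0062), and it is named after its values were seen.

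All 4 protease-activated receptor genes, F2R, F2RL1, F2RL2 and F2RL3, were tested. F2RL1, the receptor PAR2 that the tissue factor and factor VIIa complex and trypsin cleave, rose from 88.5 ± 1.71 to 123 ± 8.35 FPKM (means ± SD, n = 3 each), and the log2 fold change was 0.47 (edgeR adjusted p = 3.7e-04). This call held with each library left out. F2R, the thrombin receptor PAR1, had a log2 fold change of 0.22 (edgeR adjusted p = 0.036) and held in 1 of the 6 fits. F2RL2 and F2RL3 did not pass the test, with log2 fold changes of -0.02 and -0.37.

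Of 15 tested genes for plasminogen and its cell surface receptors, 4 were higher and 1 was lower. ANXA2, whose product binds plasminogen and PLAT at the cell surface, fell from 671 ± 28.9 to 489 ± 8.30 FPKM (means ± SD, n = 3 each), and the log2 fold change was -0.43 (edgeR adjusted p = 9.0e-04). Its partner S100A10 had a log2 fold change of 0.13 and did not pass the test (edgeR adjusted p = 0.105). ITGB5 (log2 fold change 0.37, adjusted p = 0.0014), an integrin chain of vitronectin receptors, MRC2 (0.27, adjusted p = 0.011), a collagen receptor that associates with PLAUR, IGF2R (0.21, adjusted p = 0.031) and ITGAV (0.20, adjusted p = 0.033) rose by edgeR, the last named after its values were seen. The calls on ANXA2 and ITGB5 held in all 6 leave-one-out fits, that of MRC2 in 4 and that of IGF2R in 1. PLG itself was not tested, as its counts did not pass the filter.

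Among inhibitors of plasmin and of plasminogen activators, 7 of 14 were tested, 1 was higher and 2 were lower. SERPINB6 (-0.19, adjusted p = 0.014) fell and SPINT2 (0.26, adjusted p = 0.013), a membrane Kunitz inhibitor, rose by edgeR, and these held in 3 and 4 of the 6 leave-one-out fits.

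Of the thrombospondin family and its receptors, 10 of 12 were tested, 4 were higher and 0 lower, with no other thrombospondin gene called. The rises were those of ITGA6 (log2 fold change 0.40, edgeR adjusted p = 0.0034), SDC1 (0.38, adjusted p = 0.0047), ITGA3 (0.27, adjusted p = 0.0097) and CD47 (0.27, adjusted p = 0.0067), all of them genes of cell surface proteins that bind matrix or thrombospondin. THBS3 (-0.19) and THBS4 (0.32) did not pass the test, and THBS2 and COMP were not tested. ITGA6, SDC1 and CD47 held with each library left out and ITGA3 in 5 of the 6 fits.

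**Figure D5:**
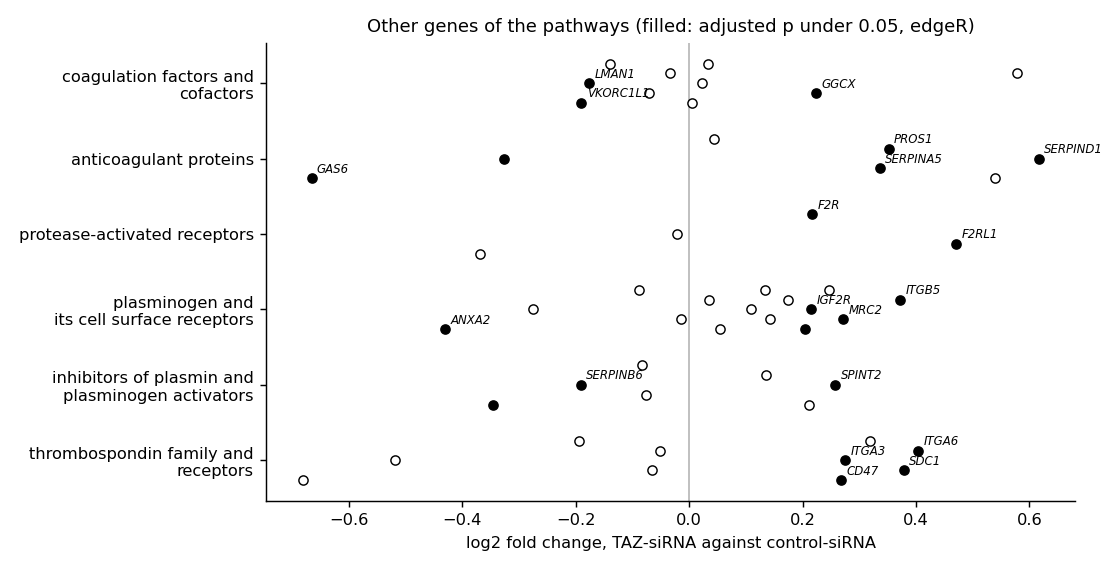
The log2 fold change (x axis, TAZ-siRNA against control-siRNA) of each tested gene of the 6 lists is shown by list, filled where the edgeR adjusted p was under 0.05, with most of the largest calls of each list named. GAS6 and ANXA2 lay farthest to the left among the filled genes and SERPIND1 and F2RL1 farthest to the right.

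For the 5 genes that changed, the genes most like them across the 6 libraries were found among 9930 other well-expressed genes (mean CPM no lower than 10), by Pearson's r of log2 CPM. They were FCF1, NIP7 and HAT1 for F3 (r of 0.997 to 0.999), CLGN, PABPC1 and WARS2 for TFPI2 (0.998 to 0.999) and UBE4A, PARPBP and WWC2 for THBS1 (0.998 to 0.999). For TFPI they were ALDH3A2, CPE and MSRB3 (0.995 to 0.999) and for PLAUR they were SERINC5, GUSB and OASL (0.995 to 0.996). The points share libraries and the 2 groups, so an r near 1 says mainly that a gene steps between the groups in the same direction. It does not fix the order of libraries within a group, nor say that the gene changes by as much. FCF1 had a log2 fold change of -0.23, well short of that of F3, while that of MSRB3, at 0.21, was near that of TFPI.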

How the data were processed

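Strand-specific mRNA libraries of MDA-MB-231 cells given control-siRNA or TAZ-siRNA (3 preparations each) were sequenced by the authors. Reads were trimmed and aligned with HISAT2 (GRCh38), and StringTie gave abundances of RefSeq transcripts. The deposited estimated counts are whole numbers per gene and transcript. The deposited FPKM are corrected for length of transcript and size of library, and the deposited TPM values for length and then to a common total. The submitters' processing notes also name Bowtie 0.12.2 and the mouse build mm8, which the human RefSeq identifiers in the files do not show. Whether counting used the strand is not given in the sources used here. Replicates take the numbers 1 to 3 of the column names, which the sample titles give as 3 to 5.

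Gene counts were compared with edgeR 4.0.16 (R 4.3.3), using TMM factors, filterByExpr (minimum count 10), quasi-likelihood fits made robust and Benjamini-Hochberg adjustment over the 16966 genes tested. Standard errors are the log2 fold change divided by the square root of F, and 95% intervals use the moderated degrees of freedom. DESeq2 1.42.0, limma 3.58.1 on FPKM and TPM, other filters and factors, a fit with the replicate number as a block, offsets for GC content and length (splines with 5 degrees of freedom, 89.7% of the genes tested and all 9 members having both values) and leaving out each library were alternatives. On simulated counts the gene fit recovered most of the changed genes, whereas the transcript fit called none of the changed transcripts, so the transcript values are given as a description. Named genes are the 9 members, WWTR1, up to 4 called genes of each list by size of change with a mean of at least 1 CPM, the highest and absent markers, and the 3 genes most like each called member. The members and lists were chosen with earlier results of these data known. Of the genes this rule picks, 1 list gene and 1 marker are not reported here.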

Additional observations from a re-analysis of the deposited data

How the results depend on the processing

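The calls on WWTR1, F3, TFPI, TFPI2, PLAUR and THBS1 and their directions held under all 16 alternatives. The range was -1.13 to -0.87 for F3, -0.87 to -0.67 for THBS1, -0.68 to -0.55 for TFPI2, 0.37 to 0.51 for PLAUR, 0.20 to 0.25 for TFPI and -3.62 to -3.15 for WWTR1, on the log2 scale. With each library left out, the log2 fold change was -0.47 to -0.094 for THBD, 0.095 to 0.17 for PLAT and -0.25 to 0.061 for SERPINE2, and the number of the 9 genes called was 5 to 8. The highest number was reached without TAZ-siRNA replicate 3, and the cause was not tested. With each library left out, 9 to 28 genes of the 6 lists were called, and 1937 to 5928 over all genes tested. The difference in the log2 ratio of PLAU to SERPINE2 was 0.03 and ran from -0.12 to 0.24, being -0.02 without control-siRNA replicate 3 or TAZ-siRNA replicate 1 and -0.12 without TAZ-siRNA replicate 2, while PLAU turned to 0.0081 with limma on log2(TPM + 1). At an edgeR adjusted p under 0.01 the same 5 of the 9 genes were called. The share of all genes tested that passed this threshold was not counted, so the number has no background beside it.

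The deviations of same-numbered libraries correlated at 0.34, -0.0006 and 0.45 for replicates 1, 2 and 3. Control-siRNA replicate 1 correlated at -0.42 with TAZ-siRNA replicate 3, and control-siRNA replicate 3 at -0.45 with TAZ-siRNA replicate 1. TAZ-siRNA replicate 2 correlated best with control-siRNA replicate 1. Deviations from a group mean depend on each other, so these correlations cannot show whether the replicate numbers pair the libraries. With the replicate block, 5 of the 9 genes and 26 genes of the lists were called, and over all genes 5122 against 3749, with F3 still called lower. Depth did not limit the 9 genes, whose lowest count was 598, for THBD.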
